A study of Mus musculus with 8 samples.

Results

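Regulatory T cells (Tregs) sorted for TNF receptor 2 (TNFR2) on their surface were compared with Tregs sorted as negative for it for the 10 genes that relay and restrain cytokine signals through the JAK-STAT pathway: the Janus kinases *Jak1* and *Jak3*, the transcription factors *Stat3*, *Stat4*, *Stat5a* and *Stat5b*, and the suppressors of cytokine signaling *Cish*, *Socs1*, *Socs2* and *Socs3*. The genes were chosen by name and found by their Ensembl identifiers among the 20172 genes in the table, and all 10 passed the filter on low values (a mean of at least 10 normalized counts over the libraries), as did 13990 genes in all. *Cish* was higher and *Jak1* was lower in TNFR2+ Tregs. The other 8 genes did not pass the test. Of 3 ratios compared within a library, those of *Stat5b* to *Stat5a* and of *Jak3* to *Jak1* also did not overlap between the populations. The share of other gene ratios that do not overlap is not given here. Of all single genes tested, 15.4% did not overlap.

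Both populations were sorted from spleens of untreated adult Foxp3-Cre-YFP mice, in which the *Foxp3* promoter drives a Cre recombinase fused to a yellow fluorescent protein, so that the fluorescence marks Tregs. Mice of both populations carried this allele. CD4+ cells were enriched, and YFP+ cells were sorted by flow cytometry into TNFR2+ Tregs (4 libraries) and TNFR2- Tregs (4 libraries). The series describes the mice as female and the study's methods mention both sexes. This comparison is described with an n of 4, but the labels do not tie the libraries to single mice or say whether both populations came from the same mice. The p-values therefore measure the spread between these libraries, whose source is not stated.

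Cytokine receptors without a kinase of their own carry JAK proteins on their inner side. When the cytokine binds, the JAKs phosphorylate the receptor and then the STAT proteins, which pair, enter the nucleus and switch on target genes, among them those of CIS (encoded by *Cish*) and the SOCS proteins, which bind receptors or JAKs and dampen the signal. In Tregs, IL-2 acts through JAK1, JAK3 and STAT5, and this route is needed for *Foxp3* expression and Treg survival.

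*Cish* is a classical STAT5 target, and the sequence around its start is shown because it holds paired matches to the core motif known for STAT5 dimers. The motif searched was TTCNNNGAA, which reads the same on both strands, in RefSeq promoters of GRCm38.p6 that run from 250 bases before to 50 bases after the start. Capitals mark the motif in each sequence, written 5′ to 3′ on the strand of the gene.
Cish, chr9:107296654-107296683, plus strand: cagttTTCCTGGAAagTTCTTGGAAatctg
Cish, second pair, chr9:107296762-107296791, plus strand: ggTTCTAGGAAgatgaggcTTCCGGGAAgg
Socs3, chr11:117969501-117969530, minus strand: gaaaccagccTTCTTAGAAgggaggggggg

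The first *Cish* pair begins at the annotated RefSeq start, with 2 bases between its motifs. The second pair, read from the GENCODE transcript, begins 105 bases after that start, with 8 bases between its motifs. In GENCODE, which places the start of the gene further upstream, both pairs lie in the 5′ UTR in exon 1 (chr9:107296026-107297034, 1009 bases), which holds 4 motifs. Of 19307 genes, 5333 (27.6%) held at least 1 motif in the first 1009 bases of their transcript, and 23 (0.119%) held 4 or more. Both this length and the number of 4 were taken from *Cish*, so the share is a description and not a test. The *Socs3* motif begins 154 bases before its start. A RefSeq promoter was matched for 9 of the 10 genes, and some of these had more than 1 promoter. Only *Cish* (2 motifs) and *Socs3* (1 motif) of these 9 genes held the motif, against 2582 of 27025 genes (9.55%) with at least 1. Of all promoters counted singly, 2726 of 32851 (8.30%) held at least 1 and 150 (0.457%) at least 2. Of the textbook STAT5 target genes listed for this work, 8 of the 16 with a promoter held it (50%), against 2582 of 27025 genes (9.55%). These matches describe sequence and do not show binding.

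The normalized counts of a library summed to between 9576920 and 11492800, and an estimated 9100080 to 12112000 reads stood behind them. The libraries were compared on the log2 scale (normalized count + 1) with limma over all 13990 genes, with a Benjamini-Hochberg adjusted p under 0.05 as the threshold. By this rule 633 genes (4.52%) were higher and 474 (3.39%) were lower in TNFR2+ Tregs. *Tnfrsf1b*, which encodes TNFR2, lay between 1839.8 and 3148 normalized counts in the TNFR2+ libraries and between 1177 and 1563 in the TNFR2- libraries (log2 fold change 0.90, limma adjusted p = 0.00449). Replicate 3 of the TNFR2- Tregs stood apart from the other libraries on the second principal component, at 91.3 against -39.1 to 17.96. All 9 listed Treg markers were tested, and 5 were higher and none was lower in TNFR2+ Tregs. *Foxp3* lay between 2812 and 3313 normalized counts in the TNFR2+ libraries and between 3292 and 4033 in the TNFR2- libraries (log2 fold change -0.23, limma adjusted p = 0.232). By protein, in another *Foxp3* reporter strain, the study found more Foxp3 in sorted TNFR2+ Tregs. The summed B cell markers (8 of 9 found) ranged from 3945 to 6043 normalized counts in the TNFR2+ libraries and from 1752 to 2855 in the TNFR2- libraries. All 5 B cell markers tested had higher means in TNFR2+ Tregs (median log2 fold change 1.20), and 1 of them passed the test. This was *Ighm*, which made up most of the sums, at 4608 ± 883 against 1911 ± 391 normalized counts (SD, n = 4 each, log2 fold change 1.27, limma adjusted p = 7.45e-04). *Cd22* did not overlap between the populations, at 309 ± 35.6 against 150.5 ± 70.6 normalized counts (log2 fold change 1.20, limma adjusted p = 0.0612). *Cd79a*, *Pax5* and *Blk* were under the filter, at 0 to 6.10, 0 to 41.5 and 0 to 3.41 over all libraries. The summed CD8 and NK markers (6 of 8 found) ranged from 109.7 to 196 and from 78.4 to 132. Of the 3 tested, *Nkg7*, a gene of cytotoxic granules, was higher in TNFR2+ Tregs without overlap, at 49.2 to 92.3 against 2.03 to 18.4 normalized counts (log2 fold change 3.19, limma adjusted p = 0.00927). The other 2 did not pass: *Prf1* had a log2 fold change of -1.09 (limma adjusted p = 0.572) and *Cd8b1* one of 0.04 (limma adjusted p = 0.976). *Cd8a*, under the filter, was at 0 to 24.2 over all libraries. None of the 3 myeloid and 1 erythroid or platelet markers tested passed. The summed myeloid markers (5 of 10 found) ranged from 52.7 to 106 and from 85.9 to 173, and the erythroid and platelet markers (2 of 8 found) from 12.2 to 221 and from 41.9 to 178. The part of these markers in the other results was not tested.

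*Jak1* (ENSMUSG00000028530, chr4:101152367-101265282, minus strand) encodes the kinase shared by the receptors of IL-2, IL-6, the interferons and many other cytokines. It stood at 6865, 7028, 6109 and 6671 normalized counts in TNFR2+ replicates 1 to 4, and at 9499, 10694, 8312 and 10866 in TNFR2- replicates 1 to 4. Every TNFR2+ library was below every TNFR2- library, and the TNFR2+ libraries were tightly grouped, with a coefficient of variation of 6.00% against 12.1%. The means were 6668 ± 400.4 and 9843 ± 1188 (SD, n = 4 each). By the means of the log2 values, *Jak1* was 32.0% lower in TNFR2+ Tregs. The fold change on the log2 scale was -0.56 (SE 0.11, 95% confidence interval -0.79 to -0.32), with a limma adjusted p of 0.00664 and an exact two-sided permutation p of 0.0286, which is the smallest that the 70 relabellings of 4 against 4 can give. In bulk RNA, fewer cells expressing a gene and less of its RNA per cell cannot be told apart.

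*Jak3* (chr8:71676296-71690575, plus strand) encodes the kinase bound to the common gamma chain of the receptors for IL-2, IL-7, IL-15 and related cytokines. It stood at 2503, 2469.9, 2689 and 2203 normalized counts in the TNFR2+ libraries and at 2018, 1994, 2389 and 1383 in the TNFR2- libraries. Only the highest TNFR2- library, replicate 3, reached into the TNFR2+ range. On the log2 scale the fold change was 0.37 (SE 0.16, 95% confidence interval 0.03 to 0.70), and it did not pass over all genes (limma adjusted p = 0.183, exact permutation p = 0.0571).

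The ratio of *Jak3* to *Jak1* normalized counts does not depend on how libraries were scaled to each other. It was 0.365, 0.351, 0.440 and 0.330 in the TNFR2+ libraries and 0.212, 0.186, 0.287 and 0.127 in the TNFR2- libraries. All TNFR2+ ratios lay above all TNFR2- ratios. The means were 0.372 ± 0.0479 and 0.203 ± 0.0664 (SD, n = 4 each). Between the means of the log2 ratios, the difference was 0.92 (SE 0.26), or 1.89-fold (exact permutation p = 0.0286, 0.0429 after adjustment over the 3 ratios compared). Part of this contrast is the difference in *Jak1* given above.

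**Figure D1:**
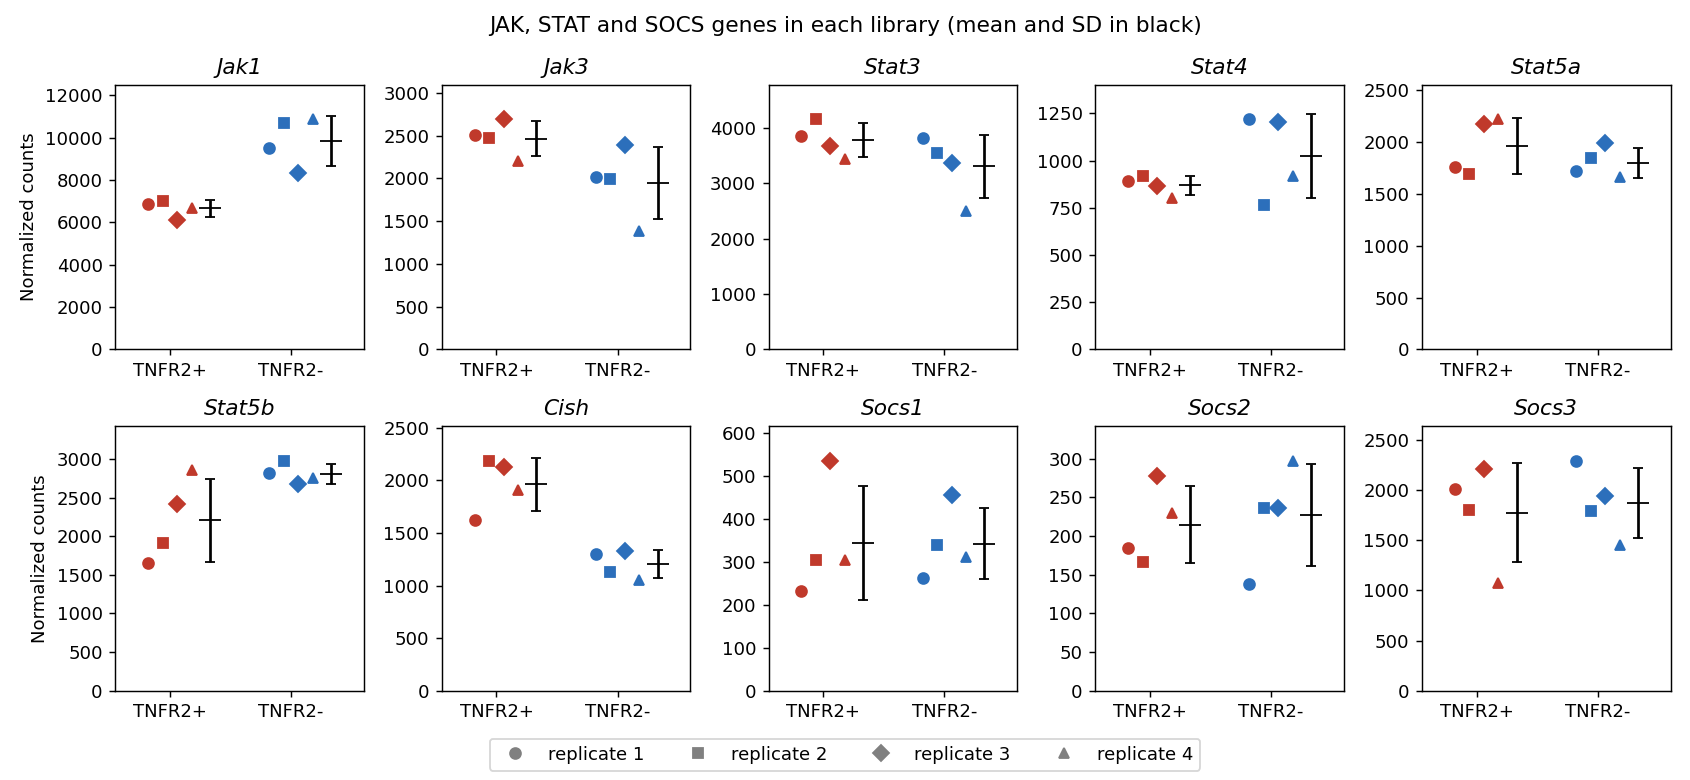
Normalized counts of the 10 JAK, STAT and SOCS genes in each library, with 1 panel a gene, 1 point a library (4 TNFR2+ and 4 TNFR2-) and a bar at the mean of each population. The populations do not overlap in *Jak1*, which is lower in TNFR2+ Tregs, and in *Cish*, which is higher.

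Of the other kinases, *Jak2*, which serves the receptors of interferon gamma, IL-12 and hematopoietic hormones, stood at 4023, 4056, 4020 and 3471 normalized counts in the TNFR2+ libraries and at 3200, 2512, 2955 and 2129 in the TNFR2- libraries. It was higher in TNFR2+ Tregs without overlap (3893 ± 281 against 2699 ± 475, SD, n = 4 each, log2 fold change 0.54, limma adjusted p = 0.0250). The *Jak2* call was lost without TNFR2+ replicate 1, 2 or 3 or without TNFR2- replicate 2 or 4, with limma adjusted p-values of 0.0538 to 0.0779. *Tyk2*, the partner of JAK1 and JAK2 at interferon and IL-12 receptors, overlapped between the populations, at 828 to 944 against 585 to 906 normalized counts (log2 fold change 0.24, limma adjusted p = 0.424).

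Among the STAT genes, none of the 4 examined passed the test. *Stat5b*, *Stat5a* and *Stat3* lie side by side on chromosome 11 (chr11:100780731-100850724, chr11:100859351-100885169 and chr11:100885098-100939540), and the annotated 3′ ends of *Stat5a*, on the plus strand, and *Stat3*, on the minus strand, overlap. *Stat5a* and *Stat5b* encode the STAT5 proteins that carry the IL-2 signal, and their transcripts were 90.9% identical over 2332 aligned bases of the 3888-base *Stat5a* transcript. No other gene had a transcript that shared 95% identity over 50% or more of the length of any of the 10 genes.

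*Stat5a* stood at 1763, 1693, 2176 and 2219 normalized counts in the TNFR2+ libraries and at 1719, 1843, 1988 and 1659.8 in the TNFR2- libraries. The populations overlapped, with TNFR2+ replicates 3 and 4 above all other libraries. The log2 fold change was 0.12 (SE 0.13, 95% confidence interval -0.17 to 0.40, limma adjusted p = 0.652, exact permutation p = 0.314).

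*Stat5b* stood at 1647, 1917, 2412 and 2859 normalized counts in the TNFR2+ libraries and at 2823, 2978, 2680.2 and 2749 in the TNFR2- libraries. The TNFR2- libraries were alike, with a coefficient of variation of 4.54%, whereas the TNFR2+ libraries spread widely, at 24.3%, and TNFR2+ replicate 4 lay within the TNFR2- range. The means were 2209 ± 537 and 2808 ± 128 (SD, n = 4 each). Between the means of the log2 values, the fold change was -0.38 (SE 0.16, 95% confidence interval -0.71 to -0.04), which did not pass over all genes (limma adjusted p = 0.167, exact permutation p = 0.114).

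The ratio of *Stat5b* to *Stat5a* within a library separated the populations. It was 0.934, 1.13, 1.11 and 1.29 in the TNFR2+ libraries and 1.64, 1.62, 1.35 and 1.66 in the TNFR2- libraries. *Stat5b* therefore exceeded *Stat5a* in every TNFR2- library by more than in any TNFR2+ library, and TNFR2+ replicate 1 had more *Stat5a* than *Stat5b*. The means were 1.12 ± 0.145 and 1.57 ± 0.146 (SD, n = 4 each), a log2 difference of -0.49 (SE 0.12, exact permutation p = 0.0286, 0.0429 after adjustment over 3 ratios). The sum of both genes, examined after the values were seen, was 4171 ± 794 in the TNFR2+ libraries and 4610.2 ± 176 in the TNFR2- libraries (log2 difference -0.16, exact permutation p = 0.371). These values count RNA, not protein or its phosphorylation.

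**Figure D2:**
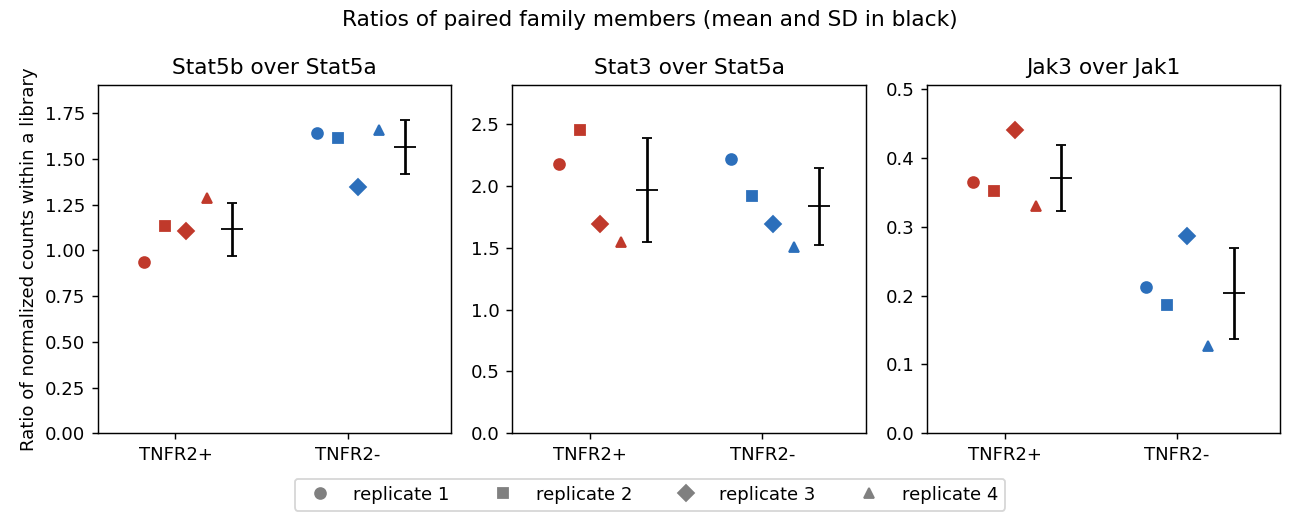
Ratios of normalized counts within each library for *Stat5b* to *Stat5a*, *Stat3* to *Stat5a* and *Jak3* to *Jak1*, with 1 point a library and a bar at the mean of each population. TNFR2+ and TNFR2- libraries separate in the first and last ratio, with means of 1.12 against 1.57 and 0.372 against 0.203, and overlap in the ratio of *Stat3* to *Stat5a*.

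*Stat3*, which carries IL-6 and IL-10 signals, stood at 3845, 4149.9, 3678 and 3433 normalized counts in the TNFR2+ libraries and at 3818, 3547, 3361 and 2501 in the TNFR2- libraries. The ranges overlapped, and the lowest library was TNFR2- replicate 4. The fold change on the log2 scale was 0.21 (SE 0.14, 95% confidence interval -0.09 to 0.50, limma adjusted p = 0.401, exact permutation p = 0.200). The ratio of *Stat3* to *Stat5a* was 1.97 ± 0.422 in the TNFR2+ libraries and 1.84 ± 0.308 in the TNFR2- libraries (SD, n = 4 each), a log2 difference of 0.09 (SE 0.20, exact permutation p = 0.657).

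*Stat4* (chr1:51987148-52107189, plus strand), which carries the IL-12 signal that drives Th1 cells, stood at 890.0, 919, 867 and 801 normalized counts in the TNFR2+ libraries and at 1218, 766, 1203 and 918 in the TNFR2- libraries. TNFR2- replicates 1 and 3 were above all TNFR2+ libraries, and TNFR2- replicate 2 was below them. On the log2 scale the fold change was -0.21 (SE 0.17, 95% confidence interval -0.57 to 0.14, limma adjusted p = 0.488, exact permutation p = 0.314).

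Of *Jak2*, *Tyk2*, *Stat2* and *Stat6*, 1 of 4 passed the test (*Jak2*, higher, as were 4.52% of all genes tested). Their median log2 fold change was 0.0070. *Stat2* carries type I interferon signals and *Stat6* that of IL-4. The log2 fold changes of *Stat2* and *Stat6* were -0.43 and -0.23 (limma adjusted p = 0.129 and 0.441). *Stat2* did not overlap between the populations, at 410 to 569 normalized counts in TNFR2+ and 580 to 712 in TNFR2- libraries.

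Of the 4 feedback inhibitors, *Cish* passed the test. *Cish* (ENSMUSG00000032578, chr9:107296026-107302784, plus strand) encodes CIS, which binds activated cytokine receptors such as the IL-2 receptor and limits STAT5 activation. It stood at 1624, 2187, 2128 and 1908 normalized counts in the TNFR2+ libraries and at 1298, 1127, 1332 and 1056 in the TNFR2- libraries. The lowest TNFR2+ library, replicate 1, was above the highest TNFR2- library, replicate 3. The means were 1962 ± 255 and 1203 ± 133 (SD, n = 4 each), so that *Cish* was 1.63-fold higher in TNFR2+ Tregs, with a log2 fold change of 0.70 (SE 0.14, 95% confidence interval 0.40 to 1.00, limma adjusted p = 0.00749, exact permutation p = 0.0286). The antisense gene *Gm17041* within *Cish* held 0 to 11.6 normalized counts, at most 0.713% of *Cish*, and the pseudogene *Gm17040* over its first exon at most 0.467%. The strand setting of the counting is not given, so reads of *Cish* and of these genes may not be told apart.

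*Socs1* (chr16:10782240-10785536, minus strand), whose protein inhibits the kinase activity of JAKs directly, stood at 233, 303, 535 and 304 normalized counts in the TNFR2+ libraries and at 262, 339, 456 and 311 in the TNFR2- libraries. Replicate 3 was the highest library in both populations, and the ranges overlapped. The log2 fold change was -0.03 with a wide interval (SE 0.26, 95% confidence interval -0.60 to 0.54, limma adjusted p = 0.961, exact permutation p = 0.943).

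*Socs2* (chr10:95385362-95417180, minus strand), best known as a brake on growth hormone signaling, stood at 184, 166, 278 and 230.0 normalized counts in the TNFR2+ libraries and at 137, 237, 236 and 297 in the TNFR2- libraries. The ranges overlapped, with a TNFR2- library at each end. The fold change on the log2 scale was -0.06 (SE 0.27, 95% confidence interval -0.65 to 0.54, limma adjusted p = 0.938, exact permutation p = 0.83). The lowest libraries rested on an estimated 137 reads for *Socs2* and 234 for *Socs1*, which alone give a counting error of 8.53% and 6.54%. It was at most 3.69% for the other 8 genes.

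*Socs3* (chr11:117966079-117970047, minus strand), which blocks IL-6 signaling by binding its receptor chain gp130 and JAKs, stood at 2015, 1799, 2209 and 1076 normalized counts in the TNFR2+ libraries and at 2296, 1793, 1941 and 1455 in the TNFR2- libraries. Replicate 4 was the lowest library of each population. On the log2 scale the fold change was -0.11 (SE 0.21, 95% confidence interval -0.56 to 0.35, limma adjusted p = 0.810, exact permutation p = 0.743). The 95% intervals of *Socs1*, *Socs2* and *Socs3* therefore all include a fall as large as that of *Jak1*, and none includes a rise as large as that of *Cish*.

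**Figure D3:**
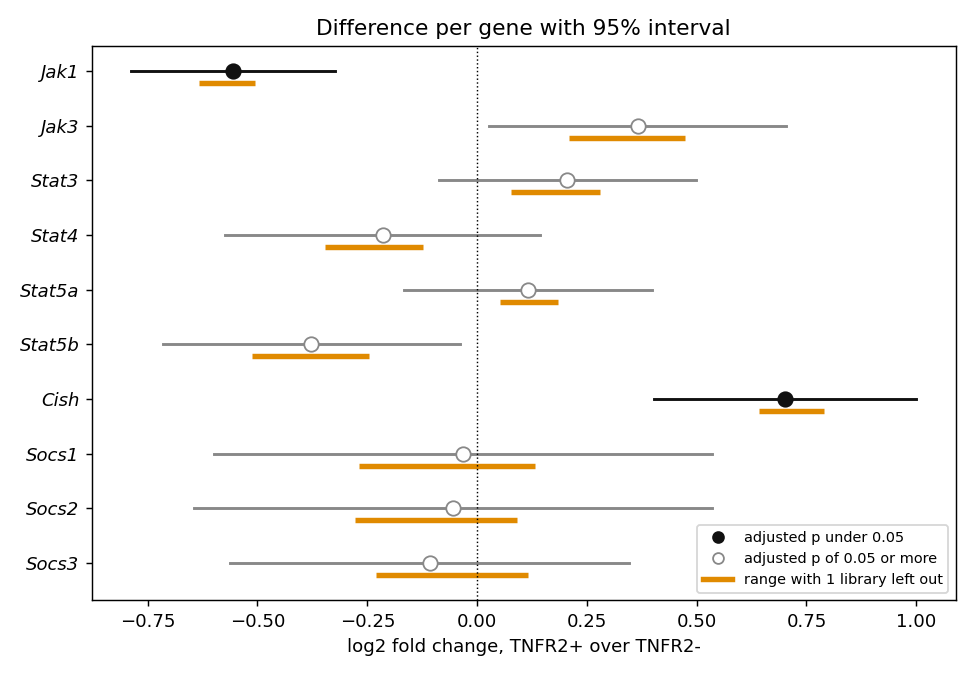
Log2 fold changes, TNFR2+ over TNFR2- Tregs, of the 10 genes grouped into kinases, STATs and SOCS genes, with points for the limma estimate, bars for its 95% confidence interval and a line at 0. *Jak1* (-0.56) and *Cish* (0.70) are marked as passing an adjusted p under 0.05, and the other 8 lie between -0.38 and 0.37.

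Over the 10 genes, 1 was higher (4.52% of all genes tested) and 1 was lower (3.39% of all). The populations did not overlap in 2 of 10 genes (15.4% of all), and 4 of 10 (*Jak1*, *Jak3*, *Stat5b* and *Cish*) had an unadjusted limma p under 0.05 (23.0% of all). The median absolute log2 fold change was 0.21 in the 10 genes and 0.37 over all genes, and the median log2 fold change was -0.04 and -0.01. Single genes make up these counts, so they do not set the 10 genes apart from the rest of the table. Without an intensity trend in the variances, both calls were lost (adjusted p = 0.0903 for *Jak1* and 0.0647 for *Cish*), while both held in the 8 fits that left out 1 library each, with limma adjusted p-values up to 0.0292 and 0.0344.

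No single library was low or high throughout. TNFR2- replicate 4 was the lowest of its population in 5 of the 10 genes (*Jak3*, *Stat3*, *Stat5a*, *Cish* and *Socs3*) and the highest in *Jak1* and *Socs2*. TNFR2+ replicate 4 was the lowest in *Jak3*, *Stat3*, *Stat4* and *Socs3* and the highest in *Stat5a* and *Stat5b*. TNFR2+ replicate 3 was the highest in *Jak3*, *Socs1*, *Socs2* and *Socs3*. TNFR2- replicate 3, which stood apart on the second principal component, was the lowest of its population in *Jak1* and *Stat5b* and the highest in *Jak3*, *Stat5a*, *Cish* and *Socs1*.

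To compare levels between genes, normalized counts were divided by the length of the principal GENCODE transcript in kilobases (2222 to 5213 bases). In TNFR2+ Tregs the order was *Jak1* (1359 ± 81.6 normalized counts per kilobase, SD, n = 4), *Stat3* (836 ± 66.6), *Socs3* (695 ± 194), *Cish* (688 ± 89.5), *Jak3* (614 ± 49.9), *Stat5a* (505 ± 70.3), *Stat5b* (424 ± 103), *Stat4* (291 ± 16.8), *Socs1* (118 ± 45.3) and *Socs2* (96.6 ± 22.5). Neighbours in this order overlapped between libraries, apart from *Jak1* and *Stat3*, *Stat5b* and *Stat4*, and *Stat4* and *Socs1*. In TNFR2- Tregs the order was *Jak1* (2006 ± 242), *Socs3* (733 ± 137), *Stat3* (732 ± 126), *Stat5b* (539 ± 24.5), *Jak3* (484 ± 104), *Stat5a* (464 ± 37.4), *Cish* (422 ± 46.7), *Stat4* (344 ± 74.4), *Socs1* (118 ± 28.3) and *Socs2* (102 ± 29.8). Here only *Jak1* and *Socs3*, and *Stat4* and *Socs1*, did not overlap with each other. *Cish* was the fourth gene in TNFR2+ Tregs and the seventh in TNFR2- Tregs, while *Jak1* was at the top and *Socs1* and *Socs2* were at the bottom in both. Divided by the length of all exons together, *Stat3* moved from rank 2 to rank 5 in TNFR2+ Tregs and *Cish* from rank 4 to rank 6, so the middle of the order depends on the length chosen.

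Upstream of the kinases, 22 of 24 listed cytokine receptor genes were tested (median log2 fold change 0.08). In TNFR2+ Tregs 2 were higher and 3 were lower, against 4.52% and 3.39% of all genes tested. *Il2rb*, the signaling chain of the IL-2 and IL-15 receptors on which JAK1 sits, stood at 4969 ± 63.6 normalized counts in the TNFR2+ libraries and 2759 ± 440.1 in the TNFR2- libraries (SD, n = 4 each, log2 fold change 0.86, limma adjusted p = 9.94e-04). The other IL-2 receptor chains, named for their role after their values were seen, did not pass the test: *Il2ra* had a log2 fold change of -0.34 (limma adjusted p = 0.0860) and *Il2rg*, the common gamma chain, one of 0.03 (limma adjusted p = 0.893). *Crlf2*, the receptor chain for TSLP, was higher (408 ± 78.5 against 245 ± 22.9 normalized counts, log2 fold change 0.72, limma adjusted p = 0.0414), a call kept only without TNFR2+ replicate 4 among the fits that left out 1 library (limma adjusted p = 0.0536 to 0.128 in the other 7).

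The 3 receptor genes that fell bind other cytokines. *Il4ra*, the IL-4 receptor chain that engages JAK1 and STAT6, was at 1625 ± 284 normalized counts in TNFR2+ Tregs against 3388 ± 856 (log2 fold change -1.04, limma adjusted p = 0.00395). *Il6ra*, the IL-6 binding chain, was at 775 ± 212 against 1908 ± 396 (log2 fold change -1.31, limma adjusted p = 0.00177). *Ifngr2*, the interferon gamma receptor chain that binds JAK2, was at 238 ± 54.3 against 530.4 ± 78.8 (log2 fold change -1.17, limma adjusted p = 0.00444). The other 17 receptor genes lay between -0.84 and 2.17 on the log2 scale and did not pass.

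Among 14 listed ligands, 6 were tested and 2 were higher, against 4.52% of all genes tested. *Il10*, an inhibitory cytokine that acts through STAT3, was at 139 ± 51.2 normalized counts in the TNFR2+ libraries and 23.6 ± 15.6 in the TNFR2- libraries (log2 fold change 2.79, limma adjusted p = 0.0121), and this call was lost without TNFR2+ replicate 3 (limma adjusted p = 0.0528). *Ebi3*, a subunit of IL-27 and IL-35, was at 191 ± 42.1 against 34.6 ± 23.6 (log2 fold change 2.66, limma adjusted p = 0.00398). These values count RNA. By protein, after restimulation in vitro, the study found less IL-10 in TNFR2+ than in TNFR2- Tregs.

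**Figure D4:**
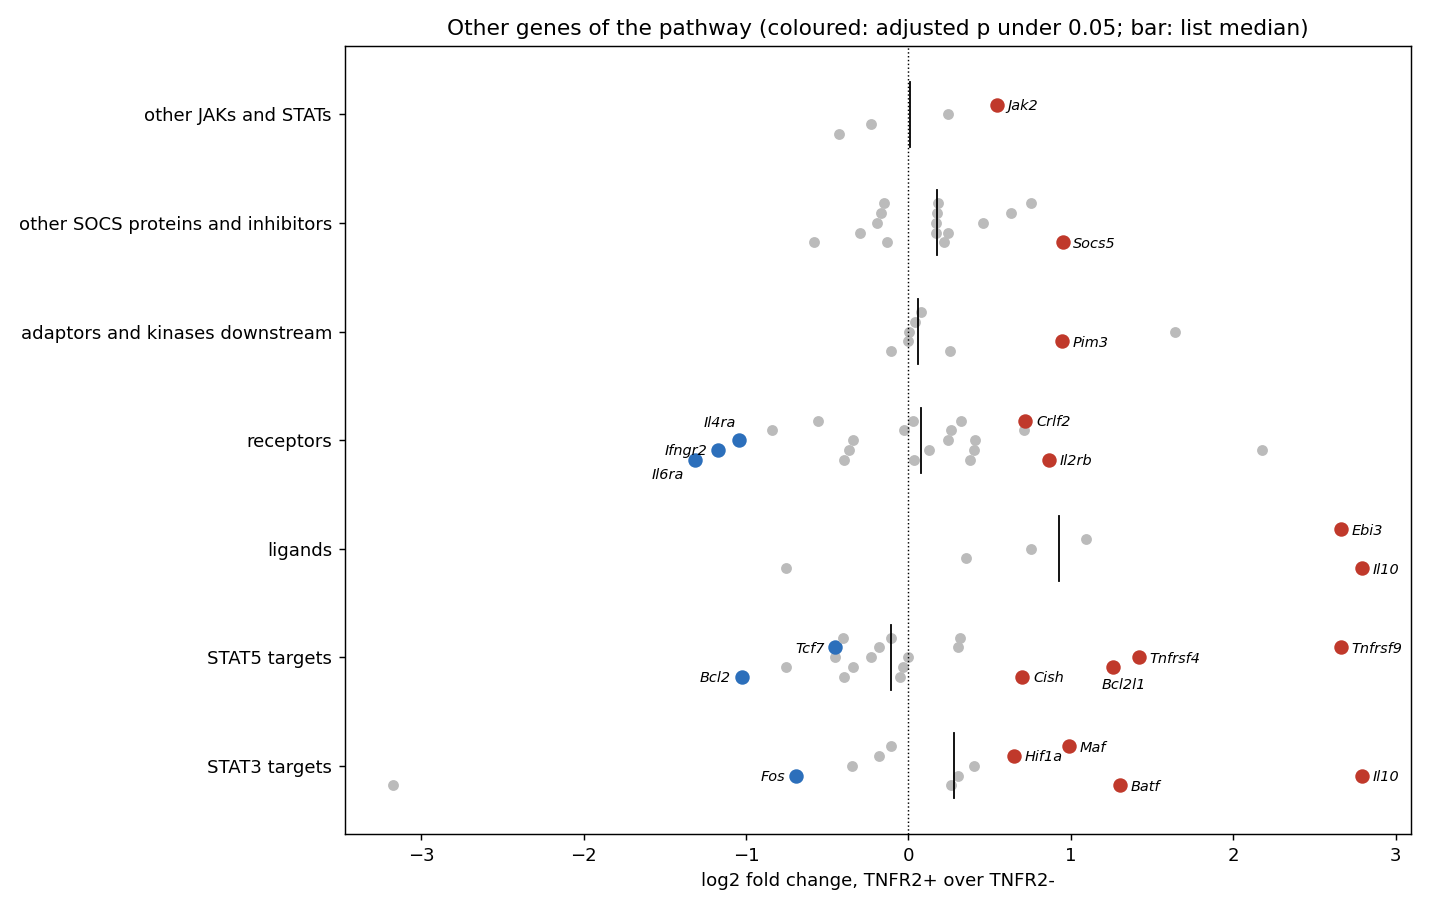
Log2 fold changes, TNFR2+ over TNFR2- Tregs, of every tested gene in the listed groups of the pathway (other JAKs and STATs, other inhibitors, adaptors and kinases, receptors, ligands, and textbook STAT5 and STAT3 targets), with 1 point a gene, coloured and named points for those with an adjusted p under 0.05, and a bar at the median of each group. Receptor genes are found on both sides of 0, with *Il2rb* (0.86) higher and *Il6ra* (-1.31), *Ifngr2* (-1.17) and *Il4ra* (-1.04) lower in TNFR2+ Tregs.

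Of 16 other inhibitors, among them further SOCS proteins, PIAS proteins and phosphatases, 1 passed the test (median log2 fold change 0.17). Over all genes tested, 4.52% were higher and 3.39% were lower. *Socs5*, an inhibitor described for IL-4 and growth factor receptors, was at 314 ± 67.5 normalized counts in the TNFR2+ libraries and 164 ± 39.6 in the TNFR2- libraries (log2 fold change 0.95, limma adjusted p = 0.0359). Its call was lost without TNFR2+ replicate 1, 2 or 3 or without TNFR2- replicate 1 or 4 (limma adjusted p = 0.0722 to 0.114). Of 8 adaptors and kinases further down, only *Pim3*, a survival kinase, passed, at 1917 ± 162 against 998 ± 109 (log2 fold change 0.94, limma adjusted p = 9.12e-04), whereas its relative *Pim1*, a STAT5 target, had a log2 fold change of -0.00019 (95% confidence interval -0.22 to 0.22, limma adjusted p = 0.999).

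Of 20 textbook STAT5 targets, 19 were tested, with a median log2 fold change of -0.11. Among them 4 were higher and 2 were lower, against 4.52% and 3.39% of all genes tested. The list was not split into genes that STAT5 raises and genes that it lowers. Its counts and medians therefore do not measure STAT5 activity. Besides *Cish*, the higher genes were *Bcl2l1*, which encodes the survival protein BCL-xL (643 ± 136 against 272 ± 73.1 normalized counts, log2 fold change 1.26, limma adjusted p = 0.00475), and the costimulatory receptors *Tnfrsf4* (log2 fold change 1.42, limma adjusted p = 0.00253) and *Tnfrsf9* (log2 fold change 2.66, limma adjusted p = 4.70e-04). *Bcl2*, a survival gene of resting T cells, was lower, at 1369 ± 210.5 against 2803 ± 527 (log2 fold change -1.03, limma adjusted p = 0.00191). *Tcf7*, a transcription factor of resting T cells, was also lower, at 4803 ± 244 against 6599.5 ± 915 normalized counts (log2 fold change -0.45, limma adjusted p = 0.0268). The *Tcf7* call held only without TNFR2- replicate 1 or 3 among the fits that left out 1 library (limma adjusted p = 0.0574 to 0.0806 in the other 6). The list without the 4 SOCS genes had 15 tested genes, 3 of them higher, and a median of -0.23.

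Of 12 textbook STAT3 targets, 4 were higher and 1 was lower (median log2 fold change 0.28). Over all genes tested, 4.52% were higher and 3.39% were lower. *Batf*, a transcription factor of effector Tregs, was at 499 ± 77.1 normalized counts in the TNFR2+ libraries and 206 ± 53.9 in the TNFR2- libraries (limma adjusted p = 0.00411, log2 fold change 1.12 to 1.43 with 1 library left out). *Il10*, which is also in this list, was given above. *Maf*, which drives *Il10* expression, had a log2 fold change of 0.99 (limma adjusted p = 0.0431) and *Hif1a*, a transcription factor of the response to low oxygen, one of 0.65 (limma adjusted p = 0.0355), with overlap between the populations in both. Each of the latter calls held only without TNFR2+ replicate 4 or TNFR2- replicate 3 among the fits that left out 1 library, with limma adjusted p-values of 0.0548 to 0.132 for *Maf* and 0.0560 to 0.116 for *Hif1a* in the others. *Fos*, an immediate early gene, was lower, at 4625 ± 709 against 7468 ± 1076 (log2 fold change -0.69, limma adjusted p = 0.00663).

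Of the 19 pathway genes called outside the 10, 9 lost their call without an intensity trend, namely *Crlf2*, *Fos*, *Hif1a*, *Il10*, *Il4ra*, *Jak2*, *Maf*, *Socs5* and *Tcf7*, with limma adjusted p-values of 0.0571 to 0.164. *Crlf2* was also lost with no filter on low values (0.0529) and with a replicate block (0.0718).

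The protein-coding genes whose levels were most like each of the 4 SOCS genes are given by Pearson's r of log2 values over the 8 libraries, as a description. The libraries share their population, so a gene that differs between the populations is like any other that does. Most like *Cish* were *Ddx24* (r = 0.981), *Nrn1* (r = 0.976) and *Spty2d1* (r = 0.976), of which *Nrn1* (log2 fold change 2.21, limma adjusted p = 5.81e-04) and *Spty2d1* (log2 fold change 0.62, limma adjusted p = 0.00838) were also higher in TNFR2+ Tregs. Most like *Socs1* were *Rdh14* (0.974), *Sh3bp5l* (0.947) and *Tmem248* (0.939), most like *Socs2* were *Ubr1* (0.932), *Zscan12* (0.927) and *Zfp932* (0.895), and most like *Socs3* were *Slc35c2* (0.932), *Ppp2ca* (0.930) and *Gm15446* (0.926).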

How the data were processed

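RNA was sequenced by the authors from sorted splenic TNFR2+ and TNFR2- Tregs (4 libraries each) with a stranded total RNA kit for low input. Per the labels' processing notes and the study's methods, reads were checked with FastQC 0.11.8, trimmed with Trim Galore, and quantified with Salmon 1.3.0 on the GRCm38 transcriptome. The deposited values are a signal per gene, gene estimates that the authors normalized between libraries with DESeq2 1.28. The step from transcripts to genes, the strand setting and any gene filter are not given in the sources used here. The values are not read counts, so no count model was fitted. Low values (up to 12) of 2806 long single-transcript genes lay within 0.1 of whole multiples of a step in 69.1% to 96.2% of cases, against 20% by chance, and this step gave the estimated reads. The counting errors derived from it cover counting only.

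Identifiers were matched to GENCODE vM21, the study's build (20008 of 20172 matched). The scale was log2(normalized count + 1), which understates the change of low genes. Fold changes and log2 differences are between means of log2 values, so they can differ slightly from those of the printed means. Genes whose mean reached 10 were tested with limma 3.58.1 in R 4.3.3, with an intensity trend, two-sided, with Benjamini-Hochberg adjustment over all 13990 genes and a threshold of 0.05. Single genes and ratios were also given an exact two-sided permutation test over 70 relabellings. The fit was tested on simulated data. Near-identical copies were searched for with blastn 2.17.0, other steps ran in python 3.11.15 with pandas 2.3.3, and plots were drawn with matplotlib 3.10.9. Promoter sequences are from RefSeq, build GRCm38.p6, and 9 of the 10 genes matched.

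The 10 genes, the pathway and marker lists, the tests and the alternatives were chosen with earlier results of these data known. Named genes are the 10 genes, every pathway list gene with an adjusted p under 0.05 (up to 8 a list), and, for each of the 4 SOCS genes, the 3 protein-coding genes (mean of at least 50) with the highest correlation. *Tnfrsf1b* was named as the sorted gene. The rule allows 1 gene per marker list. Further cell type markers, and other genes that did not pass, were named after their values were seen. Alternatives were pseudocounts of 0.5 and 5, no filter, a minimum mean of 50, upper-quartile and protein-coding scaling, no intensity trend, array weights, a replicate block, and leaving out each library. The sum of *Stat5a* and *Stat5b* was added after the data were seen. A listed gene of the pathway is not reported here.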

Additional observations from a re-analysis of the deposited data

Results flagged for a closer look

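In 5 of 64 groups of 4 libraries examined, the highest or lowest library stood further from its nearest neighbour than Dixon's 95% critical value for the gap over the whole range allows, and chance flags about 1 in 20 groups. The ratio of *Stat5b* to *Stat5a* was lowest in TNFR2- replicate 3, at 1.35 against 1.62 in the next library (0.867 of the range), and this library is also the one apart on the second principal component. *Jak2* was lowest in TNFR2+ replicate 4, at 3471 normalized counts against 4020.3 in the next library (0.939 of the range). *Batf* was lowest in the same library, at 384 against 532 (0.911 of the range). *Fos* was highest in TNFR2- replicate 3, at 9078 against 7045 (0.911 of the range). *Pim3* was highest in TNFR2+ replicate 2, at 2159 against 1848 (0.927 of the range).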

How the results depend on the processing

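*Jak1* and *Cish* were the 2 genes of the 10 called in 8 of the 9 alternatives that kept all libraries, with log2 fold changes of -0.57 to -0.49 and 0.68 to 0.77. Without an intensity trend 0 of the 10 were called, with the same log2 fold changes of -0.56 and 0.70, and 465 genes were called over the whole table, 425 of them among the 1107 called with it. The cause was not tested. Leaving out 1 library gave 642 to 1301 called genes over the whole table: 642 without TNFR2+ replicate 2, 722 without TNFR2+ replicate 1, 690.0 without TNFR2+ replicate 3 and 707 without TNFR2- replicate 2. *Jak1* and *Cish* were called in all 8 of these fits, with log2 fold changes of -0.63 to -0.51 and 0.64 to 0.79. Scaling by the protein-coding sum moved the median of all genes to a log2 fold change of 0.06 and the share of higher genes among those called to 66.6% from 57.2%, and turned *Socs1* to 0.036 and *Socs2* to 0.013 on the log2 scale. *Socs1* also turned to 0.13, 0.0047 and 0.0026 without TNFR2+ replicate 1, 2 or 4 and to 0.12 without TNFR2- replicate 3 (range over the 8 fits -0.27 to 0.13). *Socs2* turned to 0.0079 and 0.058 without TNFR2+ replicate 1 or 2 and to 0.092 without TNFR2- replicate 4 (range -0.28 to 0.092). *Socs3* turned to 0.12 without TNFR2+ replicate 4 (range -0.23 to 0.12). None of these passed the test. The ratio of *Stat5b* to *Stat5a* ranged from -0.56 to -0.41 and that of *Jak3* to *Jak1* from 0.72 to 1.11 (log2 differences) when 1 library was left out. Same-numbered libraries did not deviate together (correlations 5.0e-04, -0.0088, -0.0386 and -0.0053). This cannot tell whether they came from the same mice, which the labels do not state. A fit with the replicate block called *Jak1* and *Cish* and 1183 genes in all. Counting errors, at most 6.54% for *Socs1* and 8.53% for *Socs2*, were below the coefficients of variation between libraries, 38.4% and 24.1% for *Socs1* and 23.3% and 29.2% for *Socs2* (TNFR2+ and TNFR2-).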
